A study of Mus musculus with 91 samples.

Results

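The Hox genes analysed here were 38 genes of the 4 Hox clusters, chosen by their symbols (Hoxa, Hoxb, Hoxc or Hoxd followed by a number) among 53379 genes of the count table. HoxA and HoxB each contributed 10 of them, and HoxC and HoxD contributed 9 each. The cells came from the caudal lateral epiblast, the tissue beside the node and primitive streak, of wild type embryos of the outbred MF1 strain at the early headfold stage (around E8.0). The tissue pieces had been pooled before dissociation and sorting into single wells, and no genetic change or treatment was applied to any cell. Full-length RNA-seq by Smart-seq2 gave 91 cells. The embryo of a cell is not labelled, so the 91 cells were handled as 1 pooled sample, and neither a test between groups of cells nor a p-value is reported.

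Hox genes encode homeodomain transcription factors that give cells their position along the head-to-tail axis. Genes at the same place in different clusters are paralogues and carry the same number, from 1 to 13. In the gastrulating embryo the low-numbered genes are switched on first and reach farthest towards the head, and higher numbers follow in time and space, an order called collinearity. The caudal epiblast is a tissue in which this sequence unfolds, and its cells give rise to the spinal cord and the paraxial mesoderm.

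Cells were divided by a pair of genes that are not Hox genes. In 43 cells the level of Nkx1-2, a homeobox gene of the caudal epiblast, was above that of Aldh1a2, the enzyme that makes retinoic acid in early mesoderm, and these are called epiblast-like. In the other 48 cells it was not. Levels are counts per 1000000 counts of a cell (CPM). The log2 ratio of both genes (each level + 1 CPM) was 0.27 to 11.08 in epiblast-like cells and -11.67 to -0.87 in the other cells, and 4 cells lay within 2 log2 units of equality (1 epiblast-like, 3 other). The classes were checked with markers that had not defined them, though the lists were chosen with earlier results of these data known. The summed level of 7 epiblast markers (without Nkx1-2) had a median of 869.7 CPM (328.1 to 1529) in epiblast-like cells and 165.4 CPM (2.05 to 594.2) in the other cells. That of 7 mesoderm markers (without Aldh1a2) had a median of 97.3 CPM (0.629 to 697.4) in epiblast-like cells and 2353 CPM (869.4 to 4691) in the other cells, without overlap. All 7 of these mesoderm markers had a read in at least 50% of the other cells, which are called mesoderm-like below, as did 4 of the 7 epiblast markers. No marker of node, endoderm, lateral mesoderm, blood, neural or surface ectoderm cells reached that share in either class. Total counts per cell had a median of 2450073 in epiblast-like cells and 2589802 in mesoderm-like cells, and ran from 709866 to 4439571 over all cells.

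Hoxb1 and Hoxb2 were read in nearly every cell and Hoxb4 in most cells of both classes, while the majority of Hox genes had no read or reads in 1 or 2 cells. Reads were found for 22 of the 38 genes: 6 of 10 HoxA genes, 9 of 10 HoxB genes, 1 of 9 HoxC genes and 6 of 9 HoxD genes. The 16 genes without a read in any cell were Hoxa6, Hoxa10, Hoxa11, Hoxa13, Hoxb13, Hoxc5, Hoxc6, Hoxc8 to Hoxc13, Hoxd9, Hoxd11 and Hoxd12. For each of these, 0 of 91 cells leaves room for detection in up to 3.30% of cells (0 of 43 epiblast-like cells up to 6.98%, 0 of 48 mesoderm-like cells up to 6.25%), if 3 cells are taken as the limit of a count of 0. The exact intervals drawn in the plot of shares end at 8.22% and 7.40% for such genes. Both limits cover counting error only. A further 5 genes had reads in 1 or 2 cells, and 17 had a read in at least 3 cells, the minimum for a gene to be called measured. Epiblast-like cells held reads of 18 Hox genes and mesoderm-like cells of 17, of which 13 occurred in both classes. Of the 3458 pairs of a gene and a cell, 521 had a read, and 70 of those (13.4%) rested on 1 to 4 reads.

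**Figure D1:**
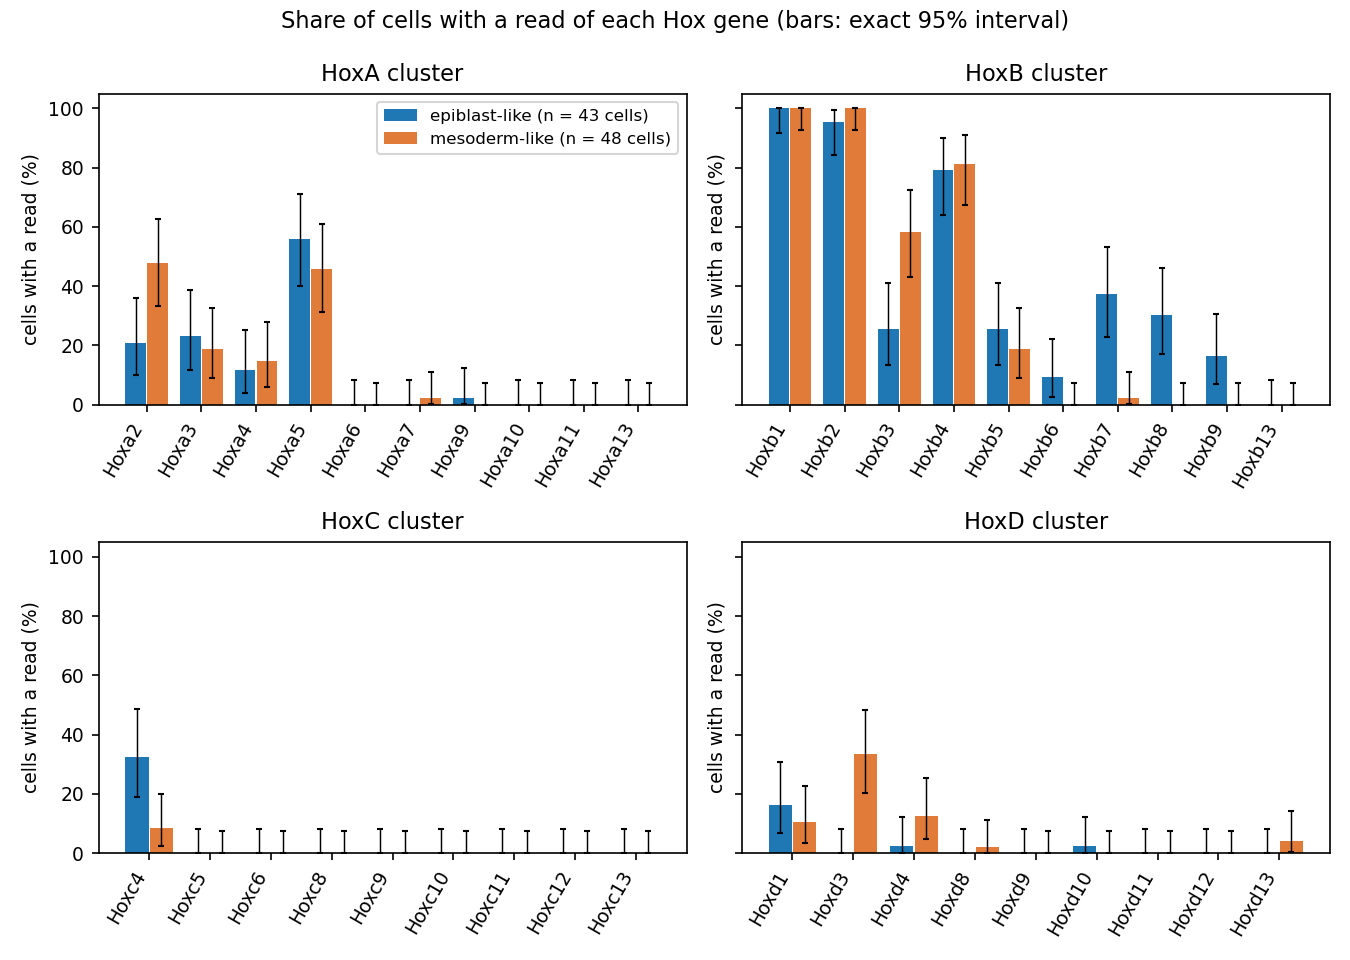
Share of cells with at least 1 read (%, y axis) of each Hox gene in order of its number (x axis) in the 4 clusters, in epiblast-like cells (blue, n = 43) and mesoderm-like cells (orange, n = 48); error bars are exact 95% Clopper-Pearson intervals that cover counting error only. Hoxb1 had a read in all cells of both classes, Hoxb6, Hoxb8 and Hoxb9 only in epiblast-like cells, and Hoxd3 only in mesoderm-like cells.

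A fold below is the ratio of mean CPM of epiblast-like over mesoderm-like cells after 1 CPM was added to each mean, given as log2, and a gene was called higher or lower past 2-fold. Of the 17 measured Hox genes, 5 were higher in epiblast-like cells (Hoxb6, Hoxb7, Hoxb8, Hoxb9 and Hoxc4), 5 were lower (Hoxa2, Hoxb1, Hoxb2, Hoxb3 and Hoxd3) and 7 were under 2-fold (Hoxa3, Hoxa4, Hoxa5, Hoxb4, Hoxb5, Hoxd1 and Hoxd4). These are 29.4% in each direction, while among all 18054 measured genes 8.18% were higher and 9.55% were lower. The median log2 ratio was -0.05 over the measured Hox genes and 0.01 over all measured genes. Of the 5 higher genes 4, and of the 5 lower genes 1, had a read in fewer than 3 cells of one class, so that they were measured only through the class in which they were high. Among the 11 Hox genes with a read in at least 3 cells of each class, 1 was higher (9.09%) and 4 were lower (36.4%), against 6.17% and 7.39% of the 14322 genes of that kind. The 5 lower genes had numbers up to 3 and the 5 higher genes had numbers from 4 upward, of which Hoxb6 to Hoxb9 were measured through epiblast-like cells alone. Genes outside the calls did not keep to this order: Hoxd1 had a log2 ratio of 0.46 (-0.06 without its highest cell), Hoxb4 of -0.61 and Hoxd4 of -0.42, and Hoxa7 and Hoxd13 had reads in mesoderm-like cells only.

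**Figure D2:**
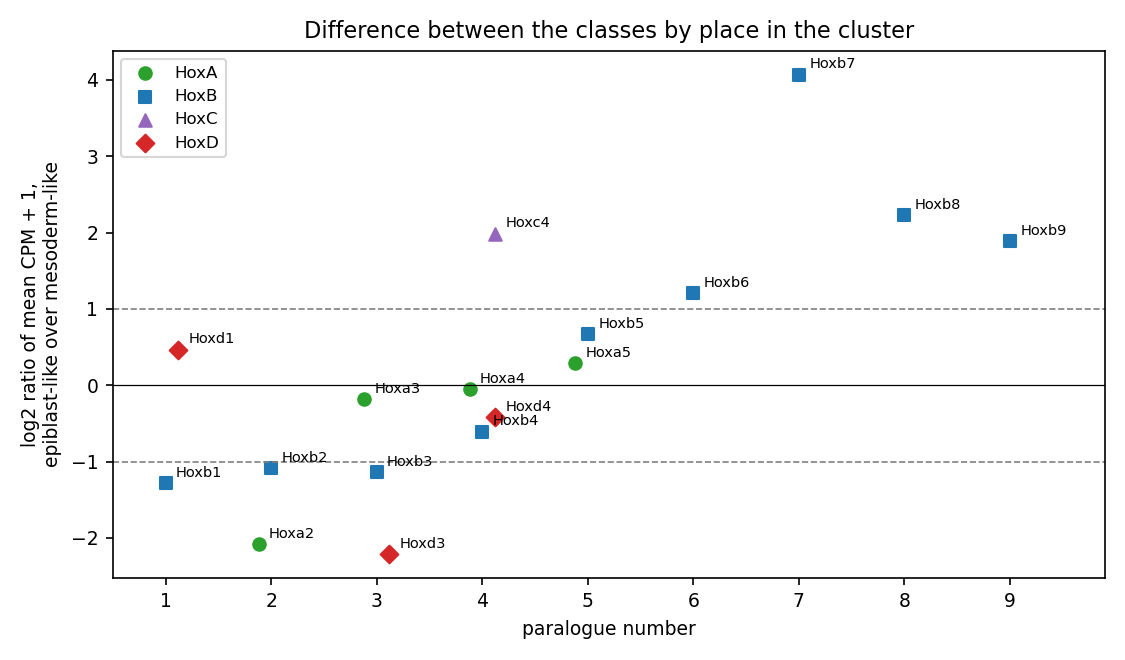
Log2 ratio of mean CPM + 1 CPM in epiblast-like over mesoderm-like cells (y axis) against the paralogue number (x axis) for the 17 Hox genes with a read in at least 3 cells; shapes and colours mark the cluster and dashed lines mark 2-fold. In HoxB the ratio is -1.28 for Hoxb1, -0.61 for Hoxb4 and 4.07 for Hoxb7.

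Hoxb1, which patterns the hindbrain and marks the streak and young mesoderm, was the Hox gene with the most reads in both classes. Its level per cell was 4.08 to 544.0 CPM with a median of 177.7 CPM in epiblast-like cells, and 80.7 to 1856 CPM with a median of 410.4 CPM in mesoderm-like cells. The ranges overlapped widely, with the highest cells all mesoderm-like. The mean was 200.2 ± 122 CPM (SD over 43 cells) in epiblast-like cells and 487.1 ± 337 CPM (SD over 48 cells) in mesoderm-like cells, a log2 ratio of -1.28. Hoxb1 made up 62.6% of the mean summed Hox level in epiblast-like cells and 75.5% in mesoderm-like cells. That summed level was 320.0 ± 193 CPM in epiblast-like cells and 645.3 ± 344 CPM in mesoderm-like cells. Without Hoxb1 it was 119.8 ± 94.8 CPM and 158.2 ± 89.7 CPM, so that the gap between the classes was mainly one of Hoxb1.

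Hoxb2, a neighbour that acts in hindbrain patterning, had reads in 41 of 43 epiblast-like cells and in all 48 mesoderm-like cells. Its level was 0 to 83.1 CPM (median 17.2) in epiblast-like cells and 5.59 to 159.2 CPM (median 44.5) in mesoderm-like cells, with means of 23.4 ± 19.1 and 50.8 ± 31.1 CPM and a log2 ratio of -1.09. Hoxb3 was rarer and weak in both classes, with reads in 11 of 43 epiblast-like cells (25.6%) and 28 of 48 mesoderm-like cells (58.3%) and means of 0.928 ± 2.54 and 3.26 ± 5.31 CPM. Its log2 ratio of -1.14 became -0.97 once the highest mesoderm-like cell was left out. Hoxb3os, a transcript of the opposite strand, shares 52.9% of the exon bases of Hoxb3 and 27.3% of those of Hoxb2, and had reads in 22 of 43 epiblast-like cells (mean 2.73 CPM) and 48 of 48 mesoderm-like cells (mean 20.7 CPM). Whether the counting used strand is not stated in the methods or labels, so the values of Hoxb2 and Hoxb3 are uncertain to that extent. No other annotated gene shares exon bases with Hoxb1.

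Hoxb4, which acts in the neck vertebrae, and Hoxb5, which helps to place the shoulder, differed by less than 2-fold between the classes. Hoxb4 had reads in 34 of 43 epiblast-like cells (79.1%) and 39 of 48 mesoderm-like cells (81.2%), with levels of 0 to 139.9 CPM (median 19.8) and 0 to 133.1 CPM (median 28.5). The means were 26.3 ± 29.3 and 40.7 ± 40.9 CPM (log2 ratio -0.61), closer together than the spread between cells. Hoxb5 had reads in 11 of 43 epiblast-like cells and 9 of 48 mesoderm-like cells, with means of 4.36 ± 10.8 and 2.38 ± 6.85 CPM (log2 ratio 0.67).

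From Hoxb6 onward the cluster was read almost only in epiblast-like cells. These central genes act in the trunk, and Hoxb9 marks the thoracic region. Hoxb7 was detected in 16 of 43 epiblast-like cells (37.2%, with a 95% interval of 22.98 to 53.3%), which had a median of 33.1 CPM and the highest reached 144.9 CPM. In mesoderm-like cells it had a single read in 1 of 48 cells. The mean was 15.9 ± 32.3 CPM in epiblast-like cells and 0.0107 ± 0.0739 CPM in mesoderm-like cells, a log2 ratio of 4.07. Hoxb8 had 356 reads in 13 of 43 epiblast-like cells (30.2%, 17.2 to 46.1%), at least 5 reads in each of the 13, and none in 48 mesoderm-like cells. Its mean was 3.70 ± 8.47 CPM with a highest cell of 48.4 CPM, and its log2 ratio was 2.23. Its summed reads in epiblast-like cells, per total counts, were 142-fold above a floor of 3 reads over all mesoderm-like cells. That floor counts PCR reads and not cells. A single mesoderm-like cell with the gene could exceed it, so the fold is not a lower limit. Hoxb9 had 250 reads in 7 of 43 epiblast-like cells (16.3%, 6.81 to 30.7%) and no read in mesoderm-like cells. Its mean was 2.70 ± 8.71 CPM, its log2 ratio was 1.89, and its summed reads were 99.8-fold above the same floor. Hoxb6 had 126 reads in 4 epiblast-like cells and none in mesoderm-like cells (50.3-fold above that floor). Of these reads 75 were from 1 cell, and without that cell its log2 ratio fell to 0.61, against 1.20 with it. Among all measured genes 1.94% had reads in epiblast-like cells and in no mesoderm-like cell.

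**Figure D3:**
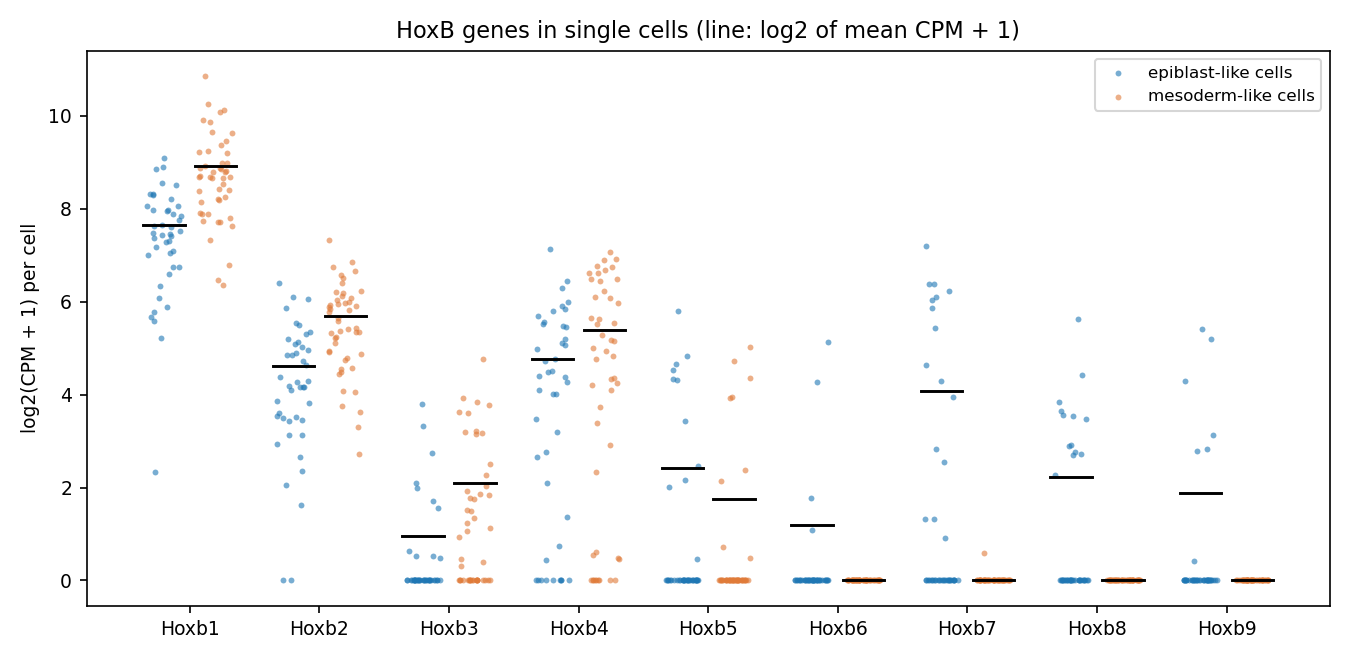
Level of Hoxb1 to Hoxb9 in each cell (y axis, log2 of CPM + 1; 0 means no read) in epiblast-like cells (blue, left of each pair) and mesoderm-like cells (orange, right); black lines are the log2 of mean CPM + 1. The mesoderm-like points reach higher for Hoxb1 and Hoxb2, and lie at 0 for Hoxb6, Hoxb8 and Hoxb9 and, but for 1 cell, for Hoxb7.

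In HoxA, reads ended at Hoxa5 apart from isolated cells. Hoxa2, which specifies the skeleton of the second branchial arch, had reads in 9 of 43 epiblast-like cells (20.9%) and 23 of 48 mesoderm-like cells (47.9%). The highest cell had 75.6 CPM among epiblast-like and 145.7 CPM among mesoderm-like cells, and the medians were 0 in both. The means were 5.68 ± 16.3 and 27.3 ± 40.02 CPM, a log2 ratio of -2.08. Hoxa5, which acts in the neck and upper trunk, had reads in 24 of 43 epiblast-like cells (55.8%) and 22 of 48 mesoderm-like cells (45.8%), with means of 17.2 ± 31.2 and 13.9 ± 24.1 CPM. It was the HoxA gene in the most epiblast-like cells, and the classes differed by less than their spread. Hoxa3, needed for the thymus and parathyroid, averaged 5.43 ± 14.5 CPM over epiblast-like cells and 6.32 ± 20.3 CPM over mesoderm-like cells, and Hoxa4 averaged 1.56 ± 6.17 and 1.66 ± 6.47 CPM. Other transcripts share 27.1% of the exon bases of Hoxa3, 15.998% of those of Hoxa4 and 15.04% of those of Hoxa2. Hoxa7 had 76 reads in 1 mesoderm-like cell, and Hoxa9 had 1 read in 1 epiblast-like cell.

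Hoxc4, a paralogue of Hoxb4, was the only HoxC gene with reads. They were in 14 of 43 epiblast-like cells (32.6%, 19.1 to 48.5%) and 4 of 48 mesoderm-like cells (8.33%, 2.32 to 19.98%). The highest cells had 41.6 and 25.5 CPM, the means were 5.54 ± 11.3 and 0.652 ± 3.72 CPM, and the log2 ratio was 1.98. Hoxc4 was the only higher Hox gene with reads in at least 3 cells of each class.

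In HoxD the gene with the clearest split was Hoxd3, which acts in the neck vertebrae. It had no read in 43 epiblast-like cells and 426 reads in 16 of 48 mesoderm-like cells (33.3%, 20.4 to 48.4%), where the highest cell had 22.4 CPM and the mean was 3.63 ± 7.07 CPM. Its log2 ratio was -2.21. In summed reads mesoderm-like cells were 119-fold above a floor of 3 reads over epiblast-like cells, which counts PCR reads and gives no lower limit over cells. Of all measured genes 2.03% had reads in mesoderm-like cells and in no epiblast-like cell. Hoxd4 had 2 reads in 1 epiblast-like cell and 40 reads in 6 mesoderm-like cells, all 6 of which had Hoxd3. These genes overlap: 62.8% of the exon bases of Hoxd3 and 52.3% of those of Hoxd4 lie in exons of other genes, each other's among them, so reads of the pair cannot be fully told apart. Hoxd1, which acts in sensory neurons, had reads in 7 epiblast-like and 5 mesoderm-like cells, with means of 5.66 ± 18.8 and 3.83 ± 13.04 CPM. Hoxd8 had 3 reads in 1 mesoderm-like cell and Hoxd10 had 1 read in 1 epiblast-like cell. Hoxd13, the gene at the far end of the cluster that patterns digits and genitalia, had 351 reads in 2 mesoderm-like cells, 316 of them in the cell of well B9, where no other HoxD gene had a read.

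Promoters are shown for the called genes that RefSeq's promoter table for GRCm38.p6 holds, to place 3 short motifs beside the direction in which each gene differed. Each runs from 250 bases before to 50 bases after the start that RefSeq gives, on the gene's own strand. For Hoxc4 that start lies inside the span of the gene in the GENCODE annotation (chr15:103018934-103036852), whose own start is farther upstream. Capitals mark matches on either strand. The first motif, TTTATG, is a site of caudal homeobox factors. The second motif is 1 repeat of the pair of sites that retinoic acid receptors bind and has the letters AGGTCA. The third, TGATNNAT, is a joint site of PBX and HOX proteins. The first 2 genes, Hoxa2 (chr6:52164782-52165081, minus strand) and Hoxb1 (chr11:96365508-96365807, plus strand), were lower in epiblast-like cells, as was Hoxd3 (chr2:74711743-74712042, plus strand). Hoxb8 (chr11:96281655-96281954, plus strand) and Hoxc4 (chr15:103034145-103034444, plus strand) were higher.
Hoxa2: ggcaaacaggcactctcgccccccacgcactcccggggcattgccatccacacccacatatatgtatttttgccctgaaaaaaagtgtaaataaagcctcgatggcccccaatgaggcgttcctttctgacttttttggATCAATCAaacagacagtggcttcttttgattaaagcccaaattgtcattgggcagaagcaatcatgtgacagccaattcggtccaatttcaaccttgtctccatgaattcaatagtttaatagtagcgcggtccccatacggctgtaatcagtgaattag
Hoxb1: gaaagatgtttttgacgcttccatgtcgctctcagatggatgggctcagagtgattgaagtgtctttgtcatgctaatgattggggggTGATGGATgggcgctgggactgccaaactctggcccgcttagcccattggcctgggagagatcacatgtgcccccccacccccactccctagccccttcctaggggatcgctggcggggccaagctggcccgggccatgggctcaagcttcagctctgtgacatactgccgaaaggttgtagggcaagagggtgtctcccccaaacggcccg
Hoxd3: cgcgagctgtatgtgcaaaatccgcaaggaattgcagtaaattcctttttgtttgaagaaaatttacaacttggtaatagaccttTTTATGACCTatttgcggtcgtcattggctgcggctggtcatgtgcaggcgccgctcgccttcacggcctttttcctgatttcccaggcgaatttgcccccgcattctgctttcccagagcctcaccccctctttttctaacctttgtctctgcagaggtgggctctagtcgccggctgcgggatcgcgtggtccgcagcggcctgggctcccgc
Hoxb8: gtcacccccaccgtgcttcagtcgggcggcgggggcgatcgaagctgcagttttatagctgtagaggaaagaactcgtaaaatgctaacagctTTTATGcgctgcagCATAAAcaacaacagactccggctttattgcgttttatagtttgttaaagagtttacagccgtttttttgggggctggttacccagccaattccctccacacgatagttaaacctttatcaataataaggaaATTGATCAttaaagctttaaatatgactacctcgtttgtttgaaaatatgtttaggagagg
Hoxc4: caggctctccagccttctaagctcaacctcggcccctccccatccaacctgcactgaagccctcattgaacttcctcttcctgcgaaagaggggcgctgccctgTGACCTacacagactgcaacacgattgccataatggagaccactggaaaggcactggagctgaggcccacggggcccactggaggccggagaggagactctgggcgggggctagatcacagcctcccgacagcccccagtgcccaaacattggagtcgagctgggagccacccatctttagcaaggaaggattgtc

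The PBX and HOX motif was found once each in the promoters of Hoxa2, Hoxb1 and Hoxb8. Hoxb8 also held 2 matches of the caudal motif, and Hoxc4 held 1 match of the retinoic acid receptor motif. In Hoxd3 a caudal motif and a retinoic acid receptor motif overlapped in a single run. Promoters were found for 22 of the 38 Hox genes (24 promoters). TTTATG was in 5 of the 24 (20.8%) and in 11.9% of all 32851 promoters of the table, AGGTCA in 7 (29.2%) and 16.3%, and TGATNNAT in 4 (16.7%) and 8.85%. A match is a stretch of letters and not a measured binding site.

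Compared per exon length (reads per kilobase per 1000000 counts, RPKM), the order of levels differed between the classes below Hoxb1. In epiblast-like cells Hoxb1 (86.2 ± 52.7 RPKM) was followed by Hoxb7 (10.3 ± 20.9), Hoxb4 (10.3 ± 11.4), Hoxa5 (9.19 ± 16.6), Hoxb2 (6.71 ± 5.47) and Hoxa2 (3.20 ± 9.16). In mesoderm-like cells Hoxb1 (209.8 ± 145 RPKM) was followed by Hoxb4 (15.8 ± 15.9), Hoxa2 (15.4 ± 22.5), Hoxb2 (14.6 ± 8.91) and Hoxa5 (7.42 ± 12.8). Below Hoxb1, neighbours in either order did not differ beyond the spread between cells. By paralogue number, the summed mean CPM over all clusters was higher in mesoderm-like cells for numbers 1 to 4 (205.9 against 490.9, 29.1 against 78.1, 6.36 against 13.2 and 33.4 against 43.3 CPM, epiblast-like cells first) and higher in epiblast-like cells for numbers 5 to 9. Number 10 rested on 1 read, numbers 11 and 12 had no read, and number 13, with 0 CPM in epiblast-like cells and 2.93 CPM in mesoderm-like cells, rested on Hoxd13 in 2 cells. Among numbers 5 to 9 the largest gap was at number 7, with 15.9 CPM in epiblast-like cells and 0.508 CPM in mesoderm-like cells.

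With the genes without a read counted in, detection in HoxA, HoxB and HoxD tended to fall with rising number, but not step by step. The rank correlation (Spearman's rho) between the number and the share of cells with a read was -0.77 in HoxA (n = 10 genes), -0.74 in HoxB (n = 10), -0.55 in HoxC (n = 9) and -0.52 in HoxD (n = 9) in epiblast-like cells, and -0.86, -0.92, -0.55 and -0.64 in mesoderm-like cells. The genes of a cluster share libraries and neighbourhood, and the values are descriptions. In HoxB the decline was interrupted at Hoxb3, detected in fewer cells than Hoxb4 in both classes. The break at Hoxb3 is uncertain, because Hoxb3os shares 52.9% of its exon bases and the use of strand is not stated, while Hoxb4 shares none. In epiblast-like cells the decline was interrupted again at Hoxb5 and Hoxb6, detected in fewer cells than Hoxb7. In HoxA, Hoxa5 was detected in more cells than Hoxa3 and Hoxa4. In epiblast-like cells it was also in more cells than Hoxa2, so the rho of HoxA there came from the genes beyond Hoxa5, which had few or no reads. In HoxC only Hoxc4 had reads, so the rho of that cluster rests on this gene alone. In HoxD, Hoxd1 was in 5 mesoderm-like cells, fewer than Hoxd3 (16) and Hoxd4 (6). Among epiblast-like cells Hoxd1 was in 7, and Hoxd4 and Hoxd10 were in 1 each, so the rho of HoxD there rests mainly on Hoxd1. When mean RPKM replaced the share of cells, rho in HoxB was -0.53 in epiblast-like cells and -0.88 in mesoderm-like cells.

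Single cells held a similar number of Hox genes in both classes. Hoxb1, Hoxb2 and Hoxb4 were read in the most cells of each class. Hoxb6 to Hoxb9 were read almost only in epiblast-like cells. An epiblast-like cell had reads of 2 to 13 Hox genes (median 6, mean 5.86 ± 2.79) and a mesoderm-like cell of 3 to 10 (median 5, mean 5.60 ± 1.91). At least 8 were found in 12 of 43 epiblast-like and 8 of 48 mesoderm-like cells, and at most 3 in 9 and 6 cells. The number ran weakly against the total count of a cell (rho -0.25 over 43 epiblast-like cells and -0.09 over 48 mesoderm-like cells, as a description). It ran with the number of all genes with a read in the cell (rho 0.36 and 0.19), and the part of library complexity in it was not tested. The highest-numbered HoxB gene of a cell was Hoxb4 in 30 of 48 mesoderm-like cells (62.5%) and Hoxb5 in 9. In epiblast-like cells it was spread out: Hoxb4 in 9 of 43, Hoxb7 in 8, Hoxb8 in 9 and Hoxb9 in 7, with 2 cells that had no HoxB gene beyond Hoxb1.

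A cell with a high-numbered HoxB gene did not always have the genes before it. Counting, for every cell, the HoxB genes numbered below its highest one, 137 of 209 (65.6%) had a read in epiblast-like cells and 125 of 145 (86.2%) in mesoderm-like cells. Every lower gene had a read in 7 of 41 epiblast-like cells and in 30 of 48 mesoderm-like cells. These values cover unlike sets of genes: Hoxb5 and Hoxb6 lay below the highest gene in 24 epiblast-like cells and in 1 mesoderm-like cell. The gaps were gene by gene and not spread evenly. Among epiblast-like cells with a higher HoxB gene, Hoxb1 was present in 41 of 41, Hoxb2 in 36 of 36 and Hoxb4 in 25 of 26, while Hoxb3 was present in 10 of 35, Hoxb5 in 9 of 24, Hoxb6 in 4 of 24, Hoxb7 in 8 of 16 and Hoxb8 in 4 of 7. In mesoderm-like cells Hoxb3 was present in 23 of 40 and Hoxb4 in 9 of 10. The gaps at Hoxb3 carry the uncertainty of its exon overlap with Hoxb3os. In HoxA 19 of 77 lower genes (24.7%) had a read in epiblast-like cells and 25 of 78 (32.1%) in mesoderm-like cells.

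**Figure D4:**
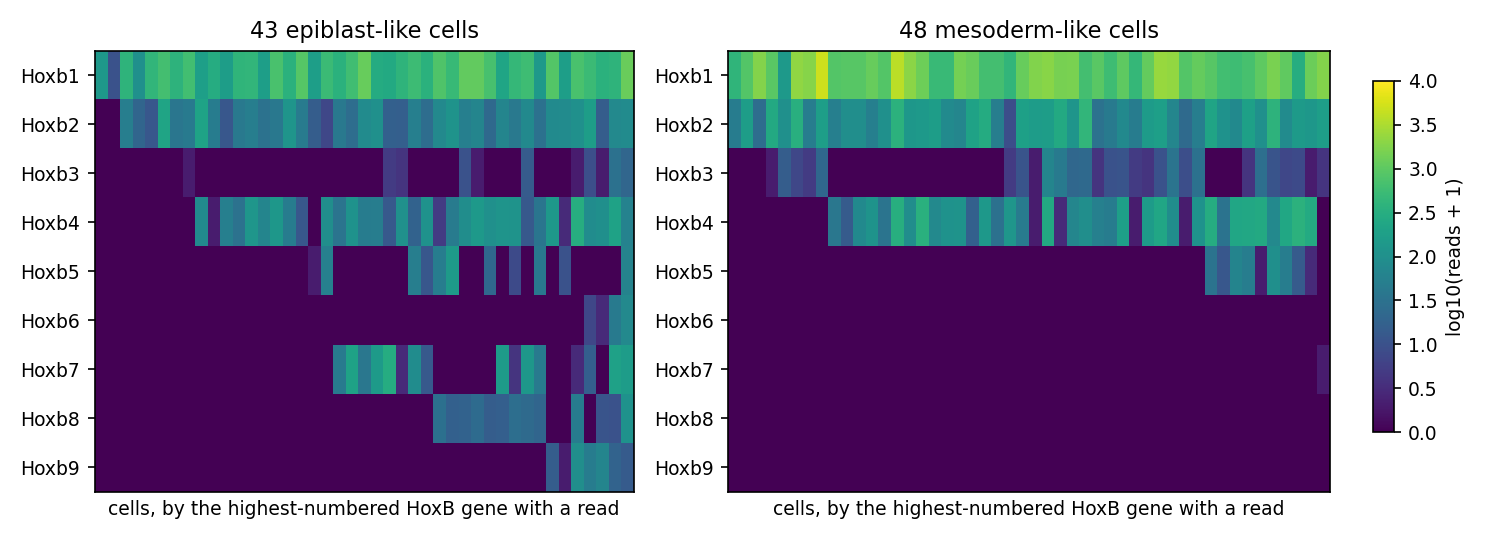
Reads of Hoxb1 to Hoxb9 (rows) in each of the 43 epiblast-like cells (left) and 48 mesoderm-like cells (right), 1 column per cell, ordered by the highest-numbered HoxB gene with a read and then by the number of HoxB genes; colour is log10 of reads + 1 and the darkest colour is no read. Gaps lie mostly in the rows of Hoxb3, Hoxb5 and Hoxb6, and the rows from Hoxb6 down are empty in mesoderm-like cells except for 1 read of Hoxb7. The row of Hoxb3 is uncertain because of its exon overlap with Hoxb3os.

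Hoxb6 to Hoxb9 were grouped after their values had been seen. At least 1 of them had a read in 24 of 43 epiblast-like cells (55.8%, 39.9 to 70.9%) and 1 of 48 mesoderm-like cells (2.08%, 0.0527 to 11.1%), and at least 5 reads of 1 of them in 22 and 0 cells. Of the 24 cells, 15 had exactly 1 of the 4 genes, 4 had 2, 3 had 3 and 2 had all 4. Hoxb7 was found in 7 of 13 cells with Hoxb8 and in 9 of 30 without, and Hoxb8 in 4 of 7 cells with Hoxb9 and in 9 of 36 without. The cell of well G8 was the only one with reads of Hoxb1 to Hoxb9 throughout: 1202, 85, 20, 58, 61, 75, 164, 107 and 13 reads in the order of the numbers, and 13 Hox genes in all. At the other end, the cell of well D7 had 9 reads of Hoxb1 (4.08 CPM, the lowest of all cells) and no other HoxB gene, but 109 reads of Hoxa2.

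Epiblast-like cells with a read of Hoxb6 to Hoxb9 had a median of 6 of the other Hox genes, and those without had 4. Their total counts were lower, with a median of 2271937 against 2754114. Their number of all genes with a read was higher, with a median of 8314 against 8159. The part of library complexity in this difference was not tested. Cells with a read of Hoxb6 to Hoxb9 had 1030 ± 357 CPM of Nkx1-2 (SD over 24 cells), and those without had 888.3 ± 355 CPM (SD over 19 cells). The share of cells also differed along the sorting plate, in a split chosen after its values had been seen. In wells of rows A and B a read of Hoxb6 to Hoxb9 was found in 3 of 10 epiblast-like and 0 of 14 mesoderm-like cells, and in rows C to H in 21 of 33 and 1 of 34. All 16 epiblast-like cells with Hoxb7 were in rows C to H. The part of plate position in these shares was not tested, and within rows C to H the classes differed in the same direction as over the whole plate.

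Pairs of genes in different clusters, chosen after their values had been seen, were read together to a varying degree in epiblast-like cells. Hoxa5 was in 12 of 16 cells with Hoxb7 and in 12 of 27 without, and Hoxc4 in 13 of 34 cells with Hoxb4 and in 1 of 9 without. In mesoderm-like cells Hoxb3 was in 12 of 16 cells with Hoxd3 and in 16 of 32 without. Other pairs did not go this way there. Hoxa2 was in 7 of 16 cells with Hoxd3 and in 16 of 32 without, and Hoxc4 in 3 of 39 cells with Hoxb4 and in 1 of 9 without. Hoxa4 and Hoxa5, which are neighbours, overlapped in one direction in epiblast-like cells: all 5 cells with Hoxa4 had Hoxa5, which was in 24 cells. Of the 7 mesoderm-like cells with Hoxa4, 5 had Hoxa5.

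Of the caudal homeobox genes, regulators that activate central Hox genes, Cdx4 and Cdx2 were higher in epiblast-like cells and Cdx1 was under 2-fold. Cdx4 had reads in 19 of 43 epiblast-like cells (mean 71.9 ± 112 CPM) and 9 of 48 mesoderm-like cells (2.23 ± 10.7 CPM). A read of Hoxb6 to Hoxb9 was present in 16 of 19 epiblast-like cells with Cdx4 (84.2%, 60.4 to 96.6%) and in 8 of 24 without (33.3%, 15.6 to 55.3%). Hoxc4 followed the same split, with 10 of 19 and 4 of 24 cells, and Hoxa5 had 13 of 19 and 11 of 24. Hoxb1 had a read in all 91 cells, so its detection could not differ between cells with and without Cdx4. In mesoderm-like cells none of the 9 with Cdx4 had a read of Hoxb6 to Hoxb9. Cyp26a1, which breaks down retinoic acid, had reads in 11 epiblast-like cells, and Hoxb7 was in 7 of these and in 9 of the 32 without it. For Hoxb8 the counts were 4 of 11 and 9 of 32, and for Hoxb9 2 of 11 and 5 of 32. Cells with and without Cdx2 had Hoxb7 in 15 of 35 and 1 of 8, but Hoxb8 in 10 of 35 and 3 of 8.

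The counts of the other lists are to be read beside the 8.18% of all measured genes that were higher and the 9.55% that were lower. Of 9 measured genes of the TALE homeodomain proteins, which bind DNA together with Hox proteins, 5 were lower in epiblast-like cells, 1 was higher and 3 were under 2-fold, with a median log2 ratio of -1.06, against 0.01 over all measured genes. Meis2 averaged 139.5 ± 116 CPM in epiblast-like cells and 477.7 ± 343 CPM in mesoderm-like cells, Pbx2 averaged 17.2 ± 21.5 and 38.8 ± 27.5 CPM, and Pbx3 averaged 17.02 ± 32.8 and 63.2 ± 82.8 CPM. Meis3 ran the other way, at 44.8 ± 47.7 CPM in epiblast-like cells and 17.01 ± 32.3 CPM in mesoderm-like cells.

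Retinoic acid induces low-numbered Hox genes. Of 13 measured genes of its pathway 3 were higher in epiblast-like cells, 4 were lower (Aldh1a2, which chose the classes, among them) and 6 were under 2-fold. Rarg, a receptor, averaged 22.5 ± 27.2 CPM in epiblast-like cells and 4.28 ± 12.4 CPM in mesoderm-like cells, and Dhrs3, which turns its precursor back to retinol, averaged 74.5 ± 125 and 20.7 ± 38.6 CPM. Crabp1, a binding protein, averaged 15.5 ± 18.3 and 138.2 ± 92.1 CPM. Of 15 Polycomb genes, which keep Hox clusters silent, 2 were higher, near the share of all genes, 5 were lower and 8 were under 2-fold (median log2 ratio -0.19). Phc1 averaged 111.1 ± 91.4 CPM in epiblast-like cells and 28.99 ± 43.3 CPM in mesoderm-like cells, whereas Phc2 averaged 23.9 ± 29.5 and 71.3 ± 63.8 CPM and Cbx2 averaged 42.3 ± 37.5 and 89.1 ± 90.6 CPM. The opposing trithorax group and the H3K27 demethylases had 11 measured genes, of which 10 were under 2-fold, and Kdm6a, a demethylase, was higher at 65.6 ± 95.02 CPM in epiblast-like cells and 31.9 ± 53.2 CPM in mesoderm-like cells. Among 9 Wnt, Fgf and Gdf ligands, signals that act on caudal Hox genes, 2 were higher, 2 were lower and 5 were under 2-fold, beside 8.18% and 9.55% of all genes. Fgf4 averaged 7.56 ± 30.7 CPM in epiblast-like cells and 68.2 ± 86.7 CPM in mesoderm-like cells.

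Of 17 non-coding transcripts of the clusters 9 were measured, of which 2 were higher in epiblast-like cells, 3 were lower and 4 were under 2-fold, beside 8.18% and 9.55% of all measured genes. Hoxaas3 in the middle of HoxA averaged 26.8 ± 45.1 CPM in epiblast-like cells (24 of 43 cells) and 6.14 ± 18.1 CPM in mesoderm-like cells (15 of 48 cells), while Hoxb3os and Hoxaas2 were lower (log2 ratios -2.54 and -1.47). Among 8 measured protein-coding neighbours outside the clusters most were under 2-fold (5), 2 were higher and 1 was lower. Snx10, beyond HoxA, averaged 61.3 ± 77.97 CPM in epiblast-like cells and 18.3 ± 53.3 CPM in mesoderm-like cells. Cbx5, beside HoxC, was level at 686.7 ± 254 CPM in epiblast-like cells and 682.4 ± 312 CPM in mesoderm-like cells, although 8 of the 9 HoxC genes had no read.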

How the data were processed

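The authors sorted single cells by FACS, made libraries by Smart-seq2 and Nextera XT without molecular identifiers, aligned single-end reads of 75 bases to GRCm38 (mm10) with HISAT2 and used featureCounts for the number of reads per gene. The deposited values were these counts, not normalized; versions, annotation and strand: not given in the sources used here. Counts were scaled to 1000000 per cell (CPM) in Python 3.11.15 (numpy 2.4.6, pandas 2.3.3, scipy 1.17.1), and RPKM used exon lengths of GENCODE M21, whose coordinates are those of GRCm38. Symbols were matched for 53274 of 53379 genes. Of 39 genes with a Hox symbol, 1 is not reported here. A gene was called measured if 3 or more cells had a read. Folds used a pseudocount of 1 CPM and a threshold of 2-fold; intervals are exact Clopper-Pearson at 95% and, with PCR reads, cover counting error only. No cell was left out and no doublet caller was run on the sorted cells. No test was made, since all cells form 1 pooled sample. The fold calls were tested on simulated data only for changes well past 2-fold in genes with a mean of at least 10 CPM. Calls near 2-fold or at lower levels, which include several Hox genes, were outside that simulation. The intervals were not tested. All Hox genes are accounted for, and those with a read in at least 10% of the cells of a class are described with values; of other lists, genes past 2-fold detected in 50% or more of the higher class, up to 4 by size of fold, could be named, and the remaining ones named (Cdx1, Cdx4, Cyp26a1, Cbx5 and the genes with reads in few cells) were chosen after their values were seen. Members and lists were chosen with earlier results of these data known. Homeodomain sequences had been planned and were not used here; promoters took their place. The alternatives were another detection minimum, thinning to 500000 counts, cells near equality left out, another pseudocount, filter, scaling and length correction, and the highest cell left out.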

Additional observations from a re-analysis of the deposited data

How the results depend on the processing

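The 2-fold calls depended on settings that bear on low levels. With a pseudocount of 10 CPM, 1 Hox gene (Hoxb7) was higher and 2 (Hoxa2 and Hoxb1) were lower in epiblast-like cells, against 5 and 5 as reported, and the shares of all genes were 1.75% and 2.46%. With a read required in at least 10 cells, 3 were higher, and by mean RPKM 3 were lower. Hoxb3 and Hoxb6 lost the call when the highest cell was left out and, with Hoxd3, by mean RPKM. By mean RPKM rho in HoxB was -0.53 in epiblast-like cells, against -0.74 for the share of cells. At a minimum of 5 reads, 0 mesoderm-like cells had Hoxb6 to Hoxb9, against 1. The remaining 47 summary values of the comparisons stayed within 1.5 times, and no Hox gene past 2-fold changed direction. Ratios of single genes could move more. The log2 ratio of Hoxb5 was 0.24 without the cells near equality and 0.30 without its highest cell, against 0.67. Of the genes under 2-fold, 4 changed sign when the highest cell was left out: Hoxa3 (0.45, against -0.19), Hoxa4 (0.36, against -0.05), Hoxa5 (-0.0011, against 0.29) and Hoxd1 (-0.06, against 0.46). Thinned to 500000 counts, 22 epiblast-like and 1 mesoderm-like cells had Hoxb6 to Hoxb9, and without the cells near equality 23 and 1. No paired analysis was possible because all cells belong to 1 pooled sample and no result comes from a test. The embryo, and so variation between embryos, cannot be told apart from variation between cells; a gene without a read in a cell may be below detection there.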
